A study of Mus musculus with 18 samples.

Results

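Tibialis anterior muscle that had received single-stranded RNA (ssRNA) was compared between A/J-MyD88 mice and A/J mice. The arrays were chosen by their titles, 3 A/J-MyD88 ssRNA arrays and 3 A/J ssRNA arrays, 6 of the 18 Illumina bead arrays of the series. Both groups are labelled dysferlin deficient, and the A/J-MyD88 group is labelled MyD88 deficient as well, so no group of this comparison carries intact dysferlin. All mice were 2 months old and had 3 injections of ssRNA into the muscle within 10 days, 3 days apart for recovery, while the opposite leg received saline. The 6 saline arrays of the same strains, 3 each, show where a strain difference in the ssRNA legs differs from that in the other legs. Together with arrays of the strain A/JOlaHsd, 17 arrays in all, they also enter the normalization, the detection filter and the shared spread. The p-values of the ssRNA comparison thus depend on them as well. The sources used here do not state how the MyD88 deficiency was made, on which strain, or whether each array is a separate animal, so p-values measure the spread between these samples, which may be technical.

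MyD88 is the adaptor that most Toll-like receptors, and the receptors for interleukin-1 and interleukin-18, need to pass on a signal. Toll-like receptor 7 (TLR7) sits in endosomes, binds ssRNA and recruits MyD88, which engages IRAK kinases and TRAF6 and so activates NF-kappaB and the interferon regulatory factor IRF7. The type I interferon that follows acts on neighbouring cells and raises genes that carry interferon-stimulated response elements (ISRE) in their promoters. Dysferlin reseals the membrane of muscle fibres, and muscle without it is known to hold many macrophages.

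The 6 arrays were alike in the share of probes detected above background, 39.0 to 42.6%. Their mean raw signal was 98.1 to 147, lowest on A/J-MyD88 array 3. The median raw signal was 4.18 to 4.63 on the A/J arrays and 2.54 to 3.38 on the A/J-MyD88 arrays, without overlap. What part this has in the differences below was not tested. The correlation of log2 values between 2 arrays was 0.986 to 0.991 within A/J, 0.982 to 0.989 within A/J-MyD88 and 0.970 to 0.982 across the strains. Muscle fibre genes marked both groups alike: the median level of 16 fibre identity genes was 12.57 to 12.83 on the A/J arrays and 12.52 to 12.59 on the A/J-MyD88 arrays, with 0 of 16 called. All levels below are log2 intensities after background correction and quantile normalization, with an offset of 16, so that differences of dim probes are understated. Levels of different probes are on no common scale, and differences are A/J-MyD88 minus A/J with the standard error of the fit.

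Most of the large differences were lower in A/J-MyD88 muscle, and interferon-induced genes, chemokines, macrophage markers and the NK cell genes Klrd1 and Nkg7 were among them. Of 11233 genes tested, 636 (5.66%) had an adjusted p under 0.05 and are here called different, 297 of them higher in A/J-MyD88 (2.64%) and 339 lower (3.02%). More than 2-fold differences were found for 17 higher and 109 lower genes. The median difference over all genes was 0.03, with a median standard error of 0.16. Of the called genes, 295 of 297 and 337 of 339 had groups of arrays that did not overlap, as had 34.7% of all genes. The count depended on single arrays: it was 256, 393 and 187 without A/J array 1, 2 or 3 of the ssRNA legs, and 332, 189 and 290 without A/J-MyD88 array 1, 2 or 3. When arrays were centred on their medians in place of quantile normalization, the median of all genes moved to -0.10 and the split became 89 higher and 1158 lower. The count also moved with other settings: 166 genes were called without background correction, 1690 when the 12 A/J and A/J-MyD88 arrays alone were fitted, 1259 when the 6 ssRNA arrays alone were fitted, and 18 when the array without muscle signal was kept.

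Some dim genes were tested only because the A/J ssRNA arrays detected them: 356 of the 11233 genes, and 28 of the 339 lower ones. Such a gene had to be high in that group, so its p-value supports nothing further. Among the genes named below these are Fpr2, Il18r1, Cd3d, Cd3g and Mefv.

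By rule, 116 genes are described, and 88 of them were called. Of these, 31 kept the call when each of the 12 A/J and A/J-MyD88 arrays was left out in turn. Fpr2 was detected on too few arrays to be tested without one of the A/J ssRNA arrays. A gene below that is said to be higher or lower in the ssRNA legs with no remark on single arrays is one of these 31. Counts of called list members below stand against 2.64% of all genes called higher and 3.02% called lower. Without background correction 10 of the 31 lost the call: Irf7, Trim30a, Klrd1, Nkg7, Cfb, Plac8, Fcgr4, Csrnp1, Parp3 and Wdr82, with adjusted p of 0.0569 to 0.789.

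The saline legs of the same strains, on other arrays, gave 604 called genes (5.38%), 493 higher in A/J-MyD88 (4.39%) and 111 lower (0.988%). That count was 214 without A/J saline array 3, and 365 and 179 without A/J-MyD88 saline arrays 1 and 2. Few genes differed in the same direction in both legs. Of the 297 genes higher in the ssRNA legs, 15 were also higher in the saline legs and 3 were lower there. Of the 339 genes lower in the ssRNA legs, 10 were lower and 88 were higher in the saline legs. The median difference of the 339 was -0.81 in the ssRNA legs, which chose them, and 0.32 in the saline legs. The direct test of the strain difference in the ssRNA legs minus that in the saline legs, which shares the ssRNA arrays with the main comparison, called 1144 genes (10.2%), 375 higher (3.34%) and 769 lower (6.85%). A block of the 2 legs of a strain that carry the same number was chosen after seeing the data. Whether the numbers pair legs is not settled. With this block the direct test called 2725 genes, 1313 higher and 1412 lower. With no block, and without A/J saline array 3, A/J ssRNA array 3 or A/J-MyD88 saline array 2, it called 652, 760 or 599.

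**Figure D1:**
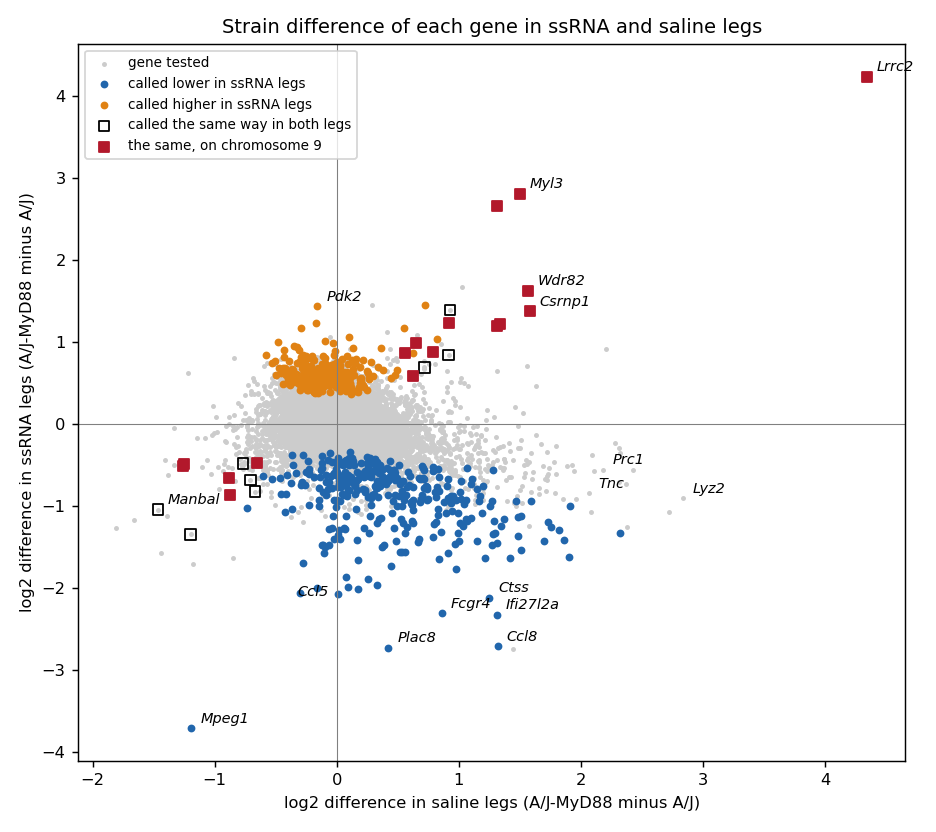
Each point is a gene, with its log2 difference between A/J-MyD88 and A/J in the saline legs on the horizontal axis and in the ssRNA legs on the vertical axis. Of the genes called lower (339) or higher (297) in the ssRNA legs, those not called the same way in both legs are blue and orange points. Squares mark the 25 genes called the same way in both legs, red for the 17 on chromosome 9. Most blue points lie to the right of 0, and the median of all 339 lower genes, squares included, was 0.32 in the saline legs.

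Sequence of 4 promoters is shown because their genes were all lower in A/J-MyD88 muscle and the window holds the letters that STAT and IRF factors are known to bind. The windows are 300 bases of RefSeq (GRCm38.p6), from 250 before to 50 after the annotated start, read 5′ to 3′ on the gene's strand. Capitals mark the ISRE letters, GAAA, any 2 bases and GAAA, on either strand and, in Fcgr4, also the upstream match of the NF-kappaB (kappaB) motif. Trim30a, a TRIM protein induced by interferon, has 2 annotated starts, of which 1 is shown. H2-T23 encodes the non-classical class I molecule Qa-1, Ctss the protease cathepsin S of antigen-presenting cells, and Fcgr4 an activating receptor for immunoglobulin G on myeloid cells.
Trim30a, chr7:104465144-104465443, minus strand: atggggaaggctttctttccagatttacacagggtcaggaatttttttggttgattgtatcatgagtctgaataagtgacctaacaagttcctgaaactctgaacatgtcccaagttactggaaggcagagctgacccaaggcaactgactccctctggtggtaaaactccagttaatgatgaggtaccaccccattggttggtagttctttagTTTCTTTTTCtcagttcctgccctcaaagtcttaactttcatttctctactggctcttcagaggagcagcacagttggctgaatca
H2-T23, chr17:36032652-36032951, minus strand: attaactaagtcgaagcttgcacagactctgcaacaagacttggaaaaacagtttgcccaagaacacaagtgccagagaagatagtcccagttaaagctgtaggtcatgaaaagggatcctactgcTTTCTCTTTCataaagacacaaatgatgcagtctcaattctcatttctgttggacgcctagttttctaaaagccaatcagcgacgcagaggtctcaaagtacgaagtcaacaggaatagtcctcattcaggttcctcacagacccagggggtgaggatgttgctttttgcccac
Ctss, chr3:95526536-95526835, plus strand: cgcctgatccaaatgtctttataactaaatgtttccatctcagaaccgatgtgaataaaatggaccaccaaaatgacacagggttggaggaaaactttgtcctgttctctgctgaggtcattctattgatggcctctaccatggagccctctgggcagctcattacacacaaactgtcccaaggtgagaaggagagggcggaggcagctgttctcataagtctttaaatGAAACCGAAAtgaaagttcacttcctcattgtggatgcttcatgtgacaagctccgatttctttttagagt
Fcgr4, chr1:171018676-171018975, plus strand: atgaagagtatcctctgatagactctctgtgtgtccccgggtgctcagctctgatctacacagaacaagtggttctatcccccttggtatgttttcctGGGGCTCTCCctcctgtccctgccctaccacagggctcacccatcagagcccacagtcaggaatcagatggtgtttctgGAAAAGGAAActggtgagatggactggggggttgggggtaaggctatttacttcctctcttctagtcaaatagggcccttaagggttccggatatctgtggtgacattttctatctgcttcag
The first base of the ISRE match lay 36 bases before the start in Trim30a, 124 in H2-T23, 21 in Ctss and 73 in Fcgr4. Among all 32851 mouse windows of this length, 3.44% held the ISRE letters. Of the 9049 tested genes with a window, 329 held them (3.64%), against 33 of 277 genes called lower (11.9%) and 6 of 241 genes called higher (2.49%). Of the interferon-induced genes described next, 14 of 24 with a window held them (58.3%), and 4 of the 9 that were called lower (44.4%). The kappaB motif was in 4.51% of all windows. Counted by gene, it was in 559 of 9049 tested genes with a window (6.18%). It was in 28 of 277 genes called lower (10.1%) and in 17 of 241 called higher (7.05%). No match of either was found in the windows of Irf7, Oasl2, Psmb8, Plac8, Ccl8, Fpr2, Emb and Mpeg1. A match is a run of letters and not a measured binding site.

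Of 36 tested members of the Toll-like receptor pathway, 6 were lower and 1 higher in A/J-MyD88 (background 3.02% and 2.64%), with a median of -0.26. Tlr7, the receptor for ssRNA, read 7.06, 6.78 and 6.96 on the A/J arrays and 6.06, 5.81 and 6.12 on the A/J-MyD88 arrays, without overlap. Its difference was -0.94 ± 0.24 (adjusted p = 0.0343), a call lost without any 1 of the 6 ssRNA arrays (0.0530 to 0.132). Tlr7 was higher in A/J-MyD88 saline legs by 1.27 (adjusted p = 0.00519), and the difference between legs was -2.20 (adjusted p = 0.00103). Tlr2, a surface receptor for bacterial lipoproteins, differed by -0.93 ± 0.20 (adjusted p = 0.0160, and 0.0520, 0.0659 and 0.0704 without A/J array 1, A/J array 3 and A/J-MyD88 array 3). Tlr4, the receptor for endotoxin, differed by -0.70 ± 0.15 (adjusted p = 0.0129, and 0.0652 and 0.0540 without A/J array 3 and A/J-MyD88 array 1). Its co-receptor Cd14 differed by -0.73 ± 0.20 (adjusted p = 0.0456), lost without any of 8 arrays (0.0573 to 0.152). Tlr2 and Cd14 were, like Tlr7, higher in A/J-MyD88 saline legs, by 1.06 (adjusted p = 0.00564, and 0.0514 without A/J-MyD88 saline array 2) and 1.102 (adjusted p = 0.00420). All 4 had groups that did not overlap in the ssRNA legs, as had 34.7% of all genes and nearly all called genes. Macrophages express these receptors, and the 49 tested macrophage markers, of which Cd14 is one, moved the same way: their median difference was -0.61 in the ssRNA legs and 0.91 in the saline legs. What part the macrophage content has in the receptor values was not tested.

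The remaining called members, given to complete the count, were Ly96, the MD-2 partner of TLR4, at -0.59 ± 0.16 (adjusted p = 0.0438), Hsp90b1, a chaperone of Toll-like receptors, at -0.57 ± 0.16 (adjusted p = 0.0472), and Tab1, an activator of the kinase TAK1, at 0.56 ± 0.13 (adjusted p = 0.0267). Their calls were lost without any of 9 arrays (0.0507 to 0.171), 10 arrays (0.0597 to 0.197) and 5 arrays (0.0563 to 0.130). Further signalling proteins, named after their values were seen, were not called: Irak1 differed by -0.06, Irak2 by 0.02, Traf6 by 0.31, the TRIF adaptor Ticam1 by 0.04, the NF-kappaB subunit Rela by -0.05 and its inhibitor Nfkbia by 0.07. Irf7, on the list of interferon-induced genes, is described there. The count of lower pathway members ranged from 0 to 6 when 1 array was left out, with 0 without A/J array 3, 1 without A/J array 1 or A/J-MyD88 array 3, 2 without A/J array 2 or A/J-MyD88 arrays 1 or 2, and 3 without the first saline array of either strain.

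The Myd88 transcript read 8.32, 8.20 and 7.89 on the A/J arrays and 7.42, 7.97 and 7.66 on the A/J-MyD88 arrays, which overlap. Its difference was -0.45 ± 0.17 (adjusted p = 0.124), and a second, dimmer probe gave -0.49 (adjusted p = 0.0508 over probes). The first probe was higher in A/J-MyD88 saline legs by 0.71 (adjusted p = 0.0203), a call lost without A/J saline arrays 2 or 3 or A/J-MyD88 saline arrays 2 or 3 (0.0581 to 0.140). The position of the probes relative to the changed part of the gene is stated in none of the sources, so these values are no check on whether MyD88 is lost. Dysf, the gene of dysferlin, read 5.66, 5.80 and 5.63 in A/J and 6.03, 6.24 and 6.14 in A/J-MyD88, a difference of 0.44 ± 0.14 (adjusted p = 0.0761).

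Interferon-induced genes were among the lower genes in A/J-MyD88 muscle. Of 34 tested, 10 were lower and 0 higher, 33 had a difference below 0, and the median was -0.78, against -0.05 in the saline legs, where 1 was called higher. Ifi27l2a, a small mitochondrial protein induced by interferon, read 10.54, 9.75 and 10.16 on the A/J arrays and 7.74, 7.70 and 8.03 on the A/J-MyD88 arrays. The groups did not overlap, and the difference was -2.33 ± 0.30 (adjusted p = 4.49e-04). Irf7, the factor that amplifies interferon production downstream of TLR7, read 7.46, 6.40 and 6.13 in A/J and 4.64, 4.87 and 5.41 in A/J-MyD88. A/J array 1 was the highest, the groups did not overlap, and the difference was -1.69 ± 0.33 (adjusted p = 0.00939). Irf7 differed by -0.28 in the saline legs (adjusted p = 0.760), and the difference between legs did not pass (-1.41, adjusted p = 0.0697).

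Trim30a, whose promoter is shown above, read 7.33, 6.94 and 6.57 in A/J and 5.39, 4.83 and 5.88 in A/J-MyD88, a difference of -1.58 ± 0.27 (adjusted p = 0.00410) between groups that did not overlap. Oasl2, an antiviral protein of the oligoadenylate synthetase family, read 9.04, 8.09 and 7.77 in A/J and 6.35, 6.48 and 7.55 in A/J-MyD88. A/J-MyD88 array 3 lay close under the lowest A/J array, and the difference of -1.50 ± 0.41 (adjusted p = 0.0446) lost its call without any of 9 arrays (0.0506 to 0.165). Plac8, a myeloid protein named here among the genes with the largest difference, read 9.17, 7.69 and 7.82 in A/J and 5.38, 5.33 and 5.79 in A/J-MyD88, lower, with a difference of -2.73 ± 0.35 (adjusted p = 4.49e-04). The count of 10 lower interferon-induced genes was 5 without A/J array 1 or 2 or A/J-MyD88 array 1 or 2, and 20 with arrays centred on their medians.

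**Figure D2:**
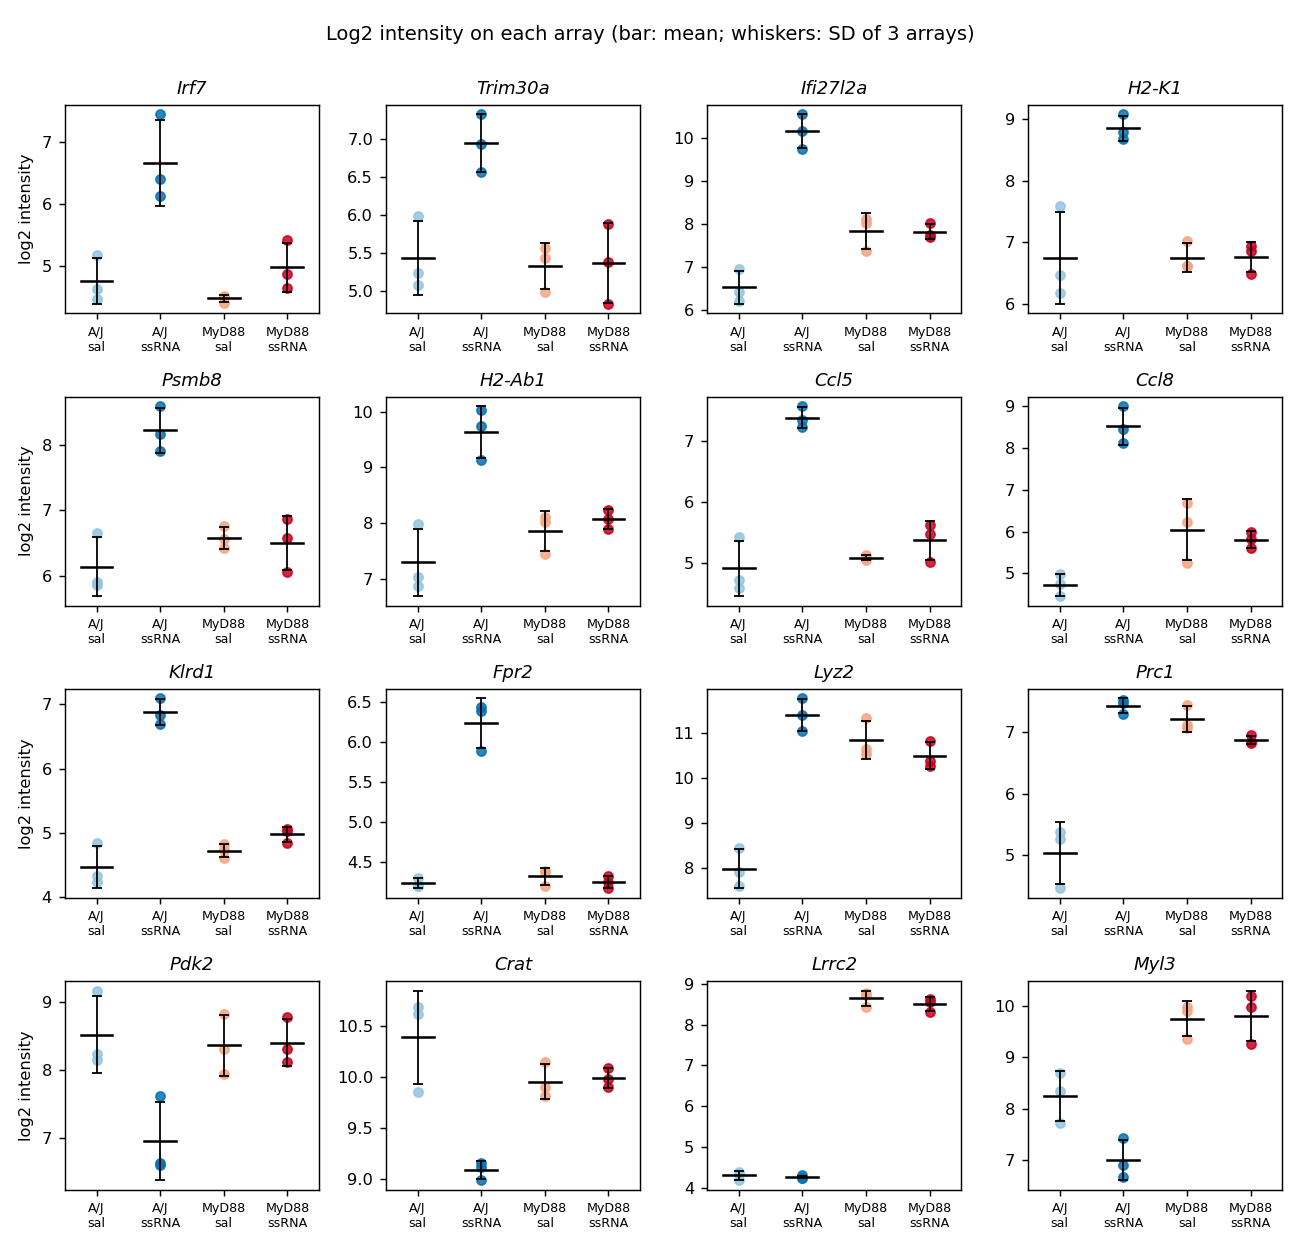
Log2 intensity of 16 genes on each of the 3 arrays of 4 groups, A/J saline, A/J ssRNA, A/J-MyD88 saline and A/J-MyD88 ssRNA (the last 2 are marked MyD88 on the axis), with the mean as a bar and the SD as whiskers; the vertical scale differs between genes and does not start at 0. H2-K1, Ccl5 and Fpr2 were highest in the A/J ssRNA group, Lyz2 and Prc1 were also high in both A/J-MyD88 groups, and Lrrc2 was high in both A/J-MyD88 groups and near 4.24 in A/J.

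Several chemokines that attract monocytes and lymphocytes were lower in A/J-MyD88 muscle. Of 24 CC and CXC chemokines tested, 7 were lower (29.2%, against 3.02% of all genes) and 0 higher, with a median of -0.47. Of the 7, 1 was tested only because the A/J ssRNA arrays detected it. Ccl8, a monocyte attractant, read 9.001, 8.12 and 8.45 on the A/J arrays and 5.83, 5.99 and 5.60 on the A/J-MyD88 arrays, without overlap. Its difference was -2.71 ± 0.28 (adjusted p = 5.89e-05), a ratio of 6.56 on this scale. Ccl8 was higher in A/J-MyD88 saline legs by 1.32 (adjusted p = 0.0121, lost without A/J saline array 3 or A/J-MyD88 saline arrays 1 or 2, at 0.0622 to 0.0802), and the difference between legs was -4.03 (adjusted p = 1.13e-04).

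Ccl5, which attracts T cells and NK cells, read 7.36, 7.58 and 7.23 in A/J and 5.02, 5.48 and 5.63 in A/J-MyD88, lower, with a difference of -2.01 ± 0.21 (adjusted p = 5.89e-05). It differed by 0.18 in the saline legs (adjusted p = 0.756). Ccl7, another monocyte attractant, differed by -1.38 ± 0.28 (adjusted p = 0.0109, and 0.0509 and 0.0502 without A/J array 1 and A/J-MyD88 array 3). Ccl4, a chemokine made by activated macrophages and lymphocytes, differed by -1.27 ± 0.25 (adjusted p = 0.00928, and 0.0530 without A/J-MyD88 array 2). Both had groups without overlap. The count of 7 was 3 without A/J array 1 or A/J-MyD88 arrays 2 or 3, 4 without A/J array 2, and 12 with median centring. Of 10 chemokine receptors 1 was lower and 1 higher (20% called, against 5.66% of all genes). Cx3cr1, the fractalkine receptor of monocytes and macrophages, read 7.49, 7.29 and 7.52 in A/J and 6.11, 5.61 and 6.30 in A/J-MyD88. Its difference of -1.43 ± 0.32 (adjusted p = 0.0207) lost its call without A/J arrays 1 or 3 or A/J-MyD88 array 2 (0.0596 to 0.0940). The higher one was Ccrl2, a receptor that binds the attractant chemerin, encoded 29 tested genes from Myd88. It differed by 0.88 ± 0.20 (adjusted p = 0.0212), lost without A/J arrays 2 or 3 or A/J-MyD88 arrays 1 or 2 (0.0601 to 0.0934), and by 0.78 in the saline legs (adjusted p = 0.0303, lost without any of 4 saline arrays, 0.0874 to 0.165).

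Class I genes were lower in A/J-MyD88 muscle; they present peptides from inside the cell to cytotoxic cells. Of 21 tested, 11 were lower and 0 higher, all 21 had a difference below 0, and the median was -0.74, against 0.18 in the saline legs. H2-K1, a classical class I heavy chain, read 9.08, 8.79 and 8.68 on the A/J arrays and 6.86, 6.49 and 6.95 on the A/J-MyD88 arrays, lower, with a difference of -2.08 ± 0.31 (adjusted p = 0.00135). The groups lay far apart, and in the saline legs H2-K1 differed by 0.01 (adjusted p = 0.995). In the fit over all probes its dimmer probes gave -0.43 (adjusted p = 0.0299) and -0.93 (adjusted p = 0.0688) in the ssRNA legs, so the brightest probe gave the largest difference of the 3. H2-T23, shown above, read 8.31, 7.45 and 7.46 in A/J and 6.23, 5.87 and 6.13 in A/J-MyD88, lower, with a difference of -1.67 ± 0.28 (adjusted p = 0.00410), and its second probe gave -1.68. Psmb8, a catalytic subunit of the immunoproteasome that cuts peptides for class I, read 8.60, 7.91 and 8.18 in A/J and 6.87, 6.58 and 6.06 in A/J-MyD88, lower, with a difference of -1.73 ± 0.24 (adjusted p = 8.67e-04). Its second, dimmer probe gave -0.59 (adjusted p = 0.0526 over probes). H2-Q8, a class I gene of the Q region, differed by -1.33 ± 0.32 (adjusted p = 0.0283), lost without A/J arrays 1 or 3 or any A/J-MyD88 ssRNA array (0.0542 to 0.104). Class I genes are near-identical in sequence, so how far each of these probes reads its own gene is uncertain. The count of 11 was 5 and 6 without A/J array 1 and 3, and 4 and 6 without A/J-MyD88 array 2 and 3. The kappaB motif, which class I promoters are known to carry, was in the window of 6 of 16 members (37.5%), against 6.18% of tested genes.

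Class II presentation was lower in 5 of 14 tested genes (35.7%, against 3.02% of all genes) and higher in 0, with a median of -0.73. Of the 5, 1 was tested only because the A/J ssRNA arrays detected it. H2-Ab1, a class II beta chain, read 9.74, 10.03 and 9.13 on the A/J arrays and 8.25, 7.89 and 8.08 on the A/J-MyD88 arrays, lower, with a difference of -1.56 ± 0.28 (adjusted p = 0.00488), with no overlap. H2-Eb1, another beta chain, differed by -1.26 ± 0.28 (adjusted p = 0.0188), lost without A/J arrays 1 or 2 or A/J-MyD88 arrays 2 or 3 (0.0507 to 0.0812). Cd74, the invariant chain, differed by -1.06 ± 0.30 (adjusted p = 0.0496), lost without any of 10 arrays (0.0523 to 0.148). The class II median in the saline legs was 0.76, with 6 genes higher and 0 lower, a count that was 0 without A/J saline array 3 or A/J-MyD88 saline array 2. The direct test of the difference between legs called 11 of 14 lower, and 10 to 12 with 1 array left out. The count of 5 was 2 without A/J arrays 1 or 2 or A/J-MyD88 arrays 2 or 3, and 11 with median centring.

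T and NK cell markers were called in both directions. Of 17 tested, 5 were lower and 1 higher, with a median of -0.26, and 7 of the 17, with 2 of the lower ones, were tested only because the A/J ssRNA arrays detected them. The median level of the list was 4.95 to 5.16 on the A/J arrays and 4.48 to 4.54 on the A/J-MyD88 arrays. Klrd1, the CD94 subunit of NK receptors, read 6.84, 7.09 and 6.70 in A/J and 5.04, 4.85 and 5.06 in A/J-MyD88, lower, with a difference of -1.90 ± 0.17 (adjusted p = 7.38e-06). Nkg7, a protein of cytotoxic granules, read 6.22, 5.91 and 5.62 in A/J and 4.57, 4.60 and 4.51 in A/J-MyD88, lower, with a difference of -1.36 ± 0.16 (adjusted p = 1.31e-04). In whole muscle, fewer cells of a type and less RNA per cell cannot be told apart, here or in the lists that follow. Cd3e and Cd3g, subunits of the T cell receptor complex, differed by -0.68 ± 0.15 (adjusted p = 0.0151) and -0.75 ± 0.18 (adjusted p = 0.0295). The Cd3e call was lost without A/J arrays 1 or 3 or A/J-MyD88 array 3 (0.0560 to 0.197), and that of Cd3g without any 1 of the 6 ssRNA arrays (0.0521 to 0.101). Cd3g was detected on 3 of 3 A/J and 0 of 3 A/J-MyD88 arrays and so was at least 1.50-fold lower. Cd3d, another subunit, was at least 1.46-fold lower, with a measured difference of -0.64 ± 0.15 (adjusted p = 0.0246, lost without any of 4 arrays, 0.0616 to 0.104). The higher marker was Cd8b1, the beta chain of the CD8 co-receptor, at 0.57 ± 0.16 (adjusted p = 0.0491), lost without any of 10 arrays (0.0585 to 0.238). The count of 6 called markers was 2 without A/J array 1 or 3, and 3 without any 1 of the A/J-MyD88 ssRNA arrays.

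Il18r1, the binding subunit of the interleukin-18 receptor, which signals through MyD88 and is abundant on NK cells, read 5.39, 5.45 and 5.30 in A/J and 4.35, 4.23 and 4.19 in A/J-MyD88. It was detected on all A/J and no A/J-MyD88 ssRNA arrays and was at least 1.88-fold lower, with a measured difference of -1.13 ± 0.15 (adjusted p = 7.54e-04). Il18r1 was tested only because the A/J ssRNA arrays detected it, so its p-value and its place among the 31 genes support nothing further. The other 9 tested members of the interleukin-1 family and its receptors were not called. Il16, a lymphocyte attractant of the list of 14 other cytokines, differed by -0.87 ± 0.20 (adjusted p = 0.0208), lost without A/J arrays 2 or 3 or A/J-MyD88 arrays 1 or 2 (0.0590 to 0.0766). None of 5 tested B and plasma cell markers was called.

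Macrophage markers gave the most called genes of the 36 lists, and theirs had the most tested members. Their share called was 38.8%, against 5.66% of all genes. Class I presentation (52.4%) and neutrophil markers (50%) had higher shares. Of 49 tested, 19 were lower and 0 higher in A/J-MyD88, 46 had a difference below 0, and the median difference was -0.61; 3 of the 19 were tested only because the A/J ssRNA arrays detected them. Their median level was 6.72 to 7.32 on the A/J arrays and 5.93 to 6.07 on the A/J-MyD88 arrays of the ssRNA legs, and 4.81 to 5.24 and 5.89 to 6.28 in the saline legs. The order of the strains was thus opposite in the 2 legs. Of the 49, 24 were higher in A/J-MyD88 and 0 lower in the saline legs, with a median of 0.91, and this count was 13 and 14 without A/J saline array 3 and A/J-MyD88 saline array 2. The direct test of the difference between legs called 33 of 49 lower, 28 to 32 with 1 array left out.

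Fcgr4 read 9.23, 8.73 and 8.31 on the A/J arrays and 5.91, 6.44 and 7.002 on the A/J-MyD88 arrays, lower, with a difference of -2.31 ± 0.33 (adjusted p = 0.00109). Ctss read 8.61, 8.11 and 8.96 in A/J and 6.51, 5.89 and 6.92 in A/J-MyD88, lower, with a difference of -2.12 ± 0.30 (adjusted p = 0.00102). Adgre1, the F4/80 antigen of mouse macrophages, read 8.68, 8.44 and 8.91 in A/J and 7.07, 6.93 and 7.13 in A/J-MyD88, lower, with a difference of -1.63 ± 0.26 (adjusted p = 0.00242). The groups of all 3 genes lay apart, a condition by which Fcgr4 and Ctss were chosen among the 10 largest lower differences. Adgre1 was higher in A/J-MyD88 saline legs by 1.42 (adjusted p = 0.00425), and Ctss by 1.25 (adjusted p = 0.0227, and 0.140 to 0.143 without A/J saline array 3 or A/J-MyD88 saline array 2). The differences between legs were -3.17 for Fcgr4 (adjusted p = 8.37e-04), -3.37 for Ctss (adjusted p = 3.53e-04) and -3.05 for Adgre1 (adjusted p = 2.61e-04).

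Mpeg1, a pore-forming protein of macrophages, had the largest fitted difference among the lower genes, -3.71 ± 0.81 (adjusted p = 0.0161), but its A/J-MyD88 arrays read 8.02, 4.91 and 5.18 against 9.44, 10.15 and 9.66 in A/J. The call was lost without A/J array 3 or A/J-MyD88 arrays 2 or 3 (0.0560 to 0.0867), and a second, dimmer probe gave -0.36 (adjusted p = 0.0788 over probes). Lyz2, the lysozyme of macrophages and granulocytes, was not called in the ssRNA legs: it read 11.38, 11.03 and 11.75 in A/J and 10.82, 10.38 and 10.25 in A/J-MyD88, a difference of -0.90 ± 0.45 (adjusted p = 0.260). It was higher in A/J-MyD88 saline legs by 2.84 (adjusted p = 0.00197). Ms4a6d, a macrophage membrane protein, differed by -1.08 ± 0.44 (adjusted p = 0.166) in the ssRNA legs and was higher by 2.72 in the saline legs (adjusted p = 0.00223). The count of 19 lower macrophage markers was 11 and 9 without A/J arrays 1 and 3, 9 and 11 without A/J-MyD88 arrays 2 and 3, and 8 without background correction.

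The formyl peptide receptor Fpr2, listed as a neutrophil marker and also found on macrophages, read 6.44, 6.39 and 5.89 on the A/J arrays and 4.32, 4.25 and 4.18 on the A/J-MyD88 arrays. It was detected on 3 of 3 and 0 of 3 arrays, was at least 3.41-fold lower, and had a measured difference of -1.99 ± 0.16 (adjusted p = 3.53e-06), which the selection by these arrays limits as said above. No saline array of either strain detected it. Only 6 of 18 neutrophil markers passed the detection filter, Fpr2 through the A/J ssRNA arrays alone, and 3 of the 6, Fpr2 included, were lower. Csf3r, the receptor for granulocyte colony-stimulating factor, differed by -0.86 ± 0.22 (adjusted p = 0.0365), lost without any 1 of the 6 ssRNA arrays (0.0611 to 0.115). S100a8, a calcium-binding alarmin of neutrophils and monocytes, differed by -0.94 ± 0.24 (adjusted p = 0.0323), lost without A/J arrays 2 or 3 or any A/J-MyD88 ssRNA array (0.0507 to 0.132).

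Complement was lower in 3 of 13 tested genes (23.1%, against 3.02% of all genes) and higher in 0, with a median of -0.60. Cfb, factor B of the alternative pathway, read 6.999, 6.84 and 6.996 in A/J and 5.19, 5.002 and 5.05 in A/J-MyD88, lower, with a difference of -1.86 ± 0.23 (adjusted p = 3.11e-04), and differed by 0.08 in the saline legs (adjusted p = 0.922). C1qc, a chain of the C1q recognition molecule made by macrophages, read 9.92, 8.97 and 8.90 in A/J and 8.07, 8.22 and 8.13 in A/J-MyD88. Its difference of -1.12 ± 0.28 (adjusted p = 0.0305) lost its call without A/J array 1 or any A/J-MyD88 ssRNA array (0.0778 to 0.114), and in the saline legs it was higher in A/J-MyD88 by 1.50 (adjusted p = 0.00443). C1qa, another chain, differed by -0.97 ± 0.27 (adjusted p = 0.0475), lost without any of 11 arrays (0.0530 to 0.168). The count of 3 was 1 without A/J array 1 or any 1 of the A/J-MyD88 ssRNA arrays.

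Of 16 inflammasome components 3 were lower (18.8%, against 3.02% of all genes). Casp1, the protease that matures interleukin-1 beta and interleukin-18, differed by -1.09 ± 0.24 (adjusted p = 0.0198), lost without A/J arrays 1 or 3 or A/J-MyD88 arrays 2 or 3 (0.0587 to 0.0790). Casp4, the intracellular sensor of endotoxin, differed by -0.82 ± 0.21 (adjusted p = 0.0361), lost without any 1 of the 6 ssRNA arrays (0.0666 to 0.121). The pyrin gene Mefv was detected on 3 of 3 A/J and 0 of 3 A/J-MyD88 arrays and was at least 1.45-fold lower, with a measured difference of -0.69 ± 0.19 (adjusted p = 0.0459, lost without any of 11 arrays, 0.0506 to 0.159). Mefv was tested only because the A/J ssRNA arrays detected it, which limits its p-value as said above. The count of 3 was 1 without A/J array 1 or 2 or A/J-MyD88 array 1, and 0 without the other ssRNA arrays.

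**Figure D3:**
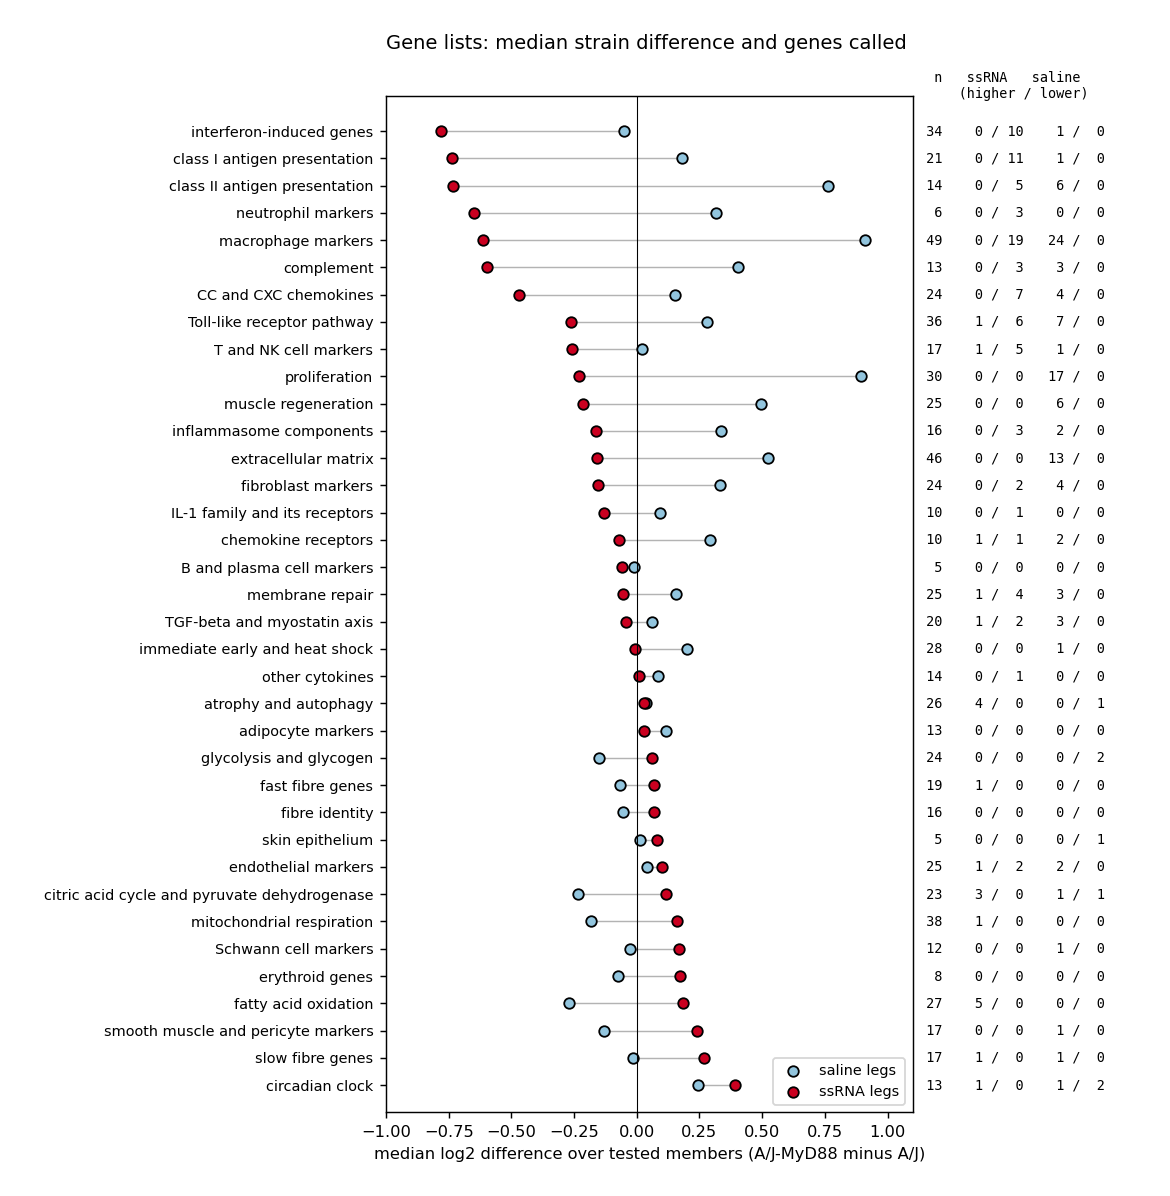
For each of 36 gene lists, the median log2 difference between A/J-MyD88 and A/J over the tested members is shown for the ssRNA legs (red) and the saline legs (blue), with the number tested and called beside it. Interferon-induced genes, class I and class II presentation have the lowest ssRNA medians (-0.78, -0.74 and -0.73), and the macrophage list has the widest gap between legs (-0.61 and 0.91).

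Lists of repair and growth differed less in the ssRNA legs than in the saline legs. Of 30 proliferation genes, 46 extracellular matrix genes and 25 muscle regeneration genes, 0 were called in the ssRNA legs by limma, with medians of -0.23, -0.16 and -0.22. In the saline legs 17, 13 and 6 of them were higher in A/J-MyD88 and 0 lower, with medians of 0.90, 0.52 and 0.50. These saline counts fell to 11, 4 and 3 without A/J saline array 3, and to 10, 3 and 3 without A/J-MyD88 saline array 2. The direct test of the difference between legs called 18, 15 and 5 of them lower. The matrix count of 15 was 7 or 8 without A/J saline array 3, A/J ssRNA array 3, A/J-MyD88 saline arrays 1 or 2, or A/J-MyD88 ssRNA array 1, and the regeneration count of 5 was 3 without A/J saline array 3 or A/J-MyD88 saline array 2.

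Prc1, which bundles microtubules in dividing cells, read 7.52, 7.48 and 7.31 in A/J and 6.96, 6.83 and 6.85 in A/J-MyD88 in the ssRNA legs, a difference of -0.56 ± 0.35 (adjusted p = 0.379). Prc1 was higher in A/J-MyD88 saline legs by 2.18 (adjusted p = 0.00197). Tnc, the matrix protein tenascin-C of injured muscle, differed by -0.84 ± 0.32 (adjusted p = 0.129) in the ssRNA legs and was higher by 2.07 in the saline legs (adjusted p = 0.00167). H2ac12, a histone gene with near-identical copies that its 2 agreeing probes may also read, was lower, with a difference of -1.33 ± 0.32 in the ssRNA legs (adjusted p = 0.0281, lost without A/J arrays 1 or 3 or A/J-MyD88 array 2, 0.0798 to 0.106) and higher by 2.32 in the saline legs (adjusted p = 9.43e-04). The fibrillar collagen gene Col3a1 differed by -1.01 ± 0.42 (adjusted p = 0.175), with 9.84, 9.92 and 10.25 in A/J and 9.12, 8.06 and 9.81 in A/J-MyD88. A/J-MyD88 array 3 lay close under the lowest A/J array. The largest differences of the regeneration list were 0.77 for Cdkn1c, a cell cycle inhibitor (adjusted p = 0.0504), and 0.77 for the imprinted gene Peg3 (adjusted p = 0.0955), and Tyms, thymidylate synthase, differed by -0.57 (adjusted p = 0.313).

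Genes of fuel use in muscle fibres were higher in A/J-MyD88 muscle in small numbers. Of 27 fatty acid oxidation genes 5 were higher (18.5%, against 2.64% of all genes) and 0 lower, with a median of 0.18. Of 23 citric acid cycle and pyruvate dehydrogenase genes 3 were higher (13%) and 0 lower, with a median of 0.12. With median centring these medians were 0.04 and -0.04, with 3 fatty acid genes called, against -0.10 for all genes. Pdk4, the kinase that shuts pyruvate dehydrogenase in fasting muscle, read 9.80, 9.03 and 9.23 on the A/J arrays and 10.42, 10.98 and 10.83 on the A/J-MyD88 arrays, higher by 1.39 ± 0.24 (adjusted p = 0.00442). It was also higher in the saline legs, by 0.93 (adjusted p = 0.0331, lost without A/J saline arrays 2 or 3 or A/J-MyD88 saline arrays 2 or 3, 0.110 to 0.136). Pdk2, the same activity from another gene, read 6.64, 7.62 and 6.61 in A/J and 8.30, 8.11 and 8.78 in A/J-MyD88. A/J array 2 lay apart from the other two, and the difference of 1.44 ± 0.30 (adjusted p = 0.0133) lost its call without A/J arrays 1 or 3 or A/J-MyD88 array 3 (0.0617 to 0.0774).

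Crat, carnitine acetyltransferase of mitochondria, read 9.12, 9.16 and 8.99 in A/J and 9.98, 9.91 and 10.09 in A/J-MyD88, a difference of 0.90 ± 0.19 (adjusted p = 0.0127, and 0.0640 and 0.0507 without A/J array 3 and A/J-MyD88 array 3). Further probes of Crat, all dimmer, gave 0.04 and -0.01. Decr1, which handles unsaturated fatty acids, differed by 0.85 ± 0.19 (adjusted p = 0.0177), lost without A/J arrays 1 or 3 or A/J-MyD88 arrays 2 or 3 (0.0520 to 0.0858). Ucp3, a mitochondrial carrier of muscle, differed by 1.45 ± 0.40 (adjusted p = 0.0469) and Fitm1, a lipid droplet protein, by 1.00 ± 0.26 (adjusted p = 0.0369); the calls were lost without any of 10 arrays (0.0524 to 0.220) and of 6 arrays (0.0505 to 0.158). Dlst, a subunit of the oxoglutarate dehydrogenase complex, differed by 0.46 ± 0.11 (adjusted p = 0.0312), lost without A/J arrays 1 or 3 or any A/J-MyD88 ssRNA array (0.0539 to 0.153).

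The fatty acid count of 5 was 0 without A/J array 3, 1 without A/J-MyD88 arrays 2 or 3, 2 without A/J-MyD88 array 1 or A/J-MyD88 saline array 1, and 3 without A/J arrays 1 or 2, A/J saline arrays 1 or 3 or A/J-MyD88 saline array 2. The citric acid cycle count of 3 was 1 without A/J arrays 1 or 3 or A/J-MyD88 array 3. Uqcrc1, a core subunit of respiratory complex III, was the 1 called gene of 38 of mitochondrial respiration, with a difference of 0.55 ± 0.12 (adjusted p = 0.0197, and 0.0952 and 0.0859 without A/J array 3 and A/J-MyD88 array 2). Of 24 glycolysis and glycogen genes 0 were called by limma. The largest differences there were 0.81 for Slc16a3, a lactate exporter (adjusted p = 0.0960), and 0.71 for Pygm, muscle glycogen phosphorylase (adjusted p = 0.0640). The difference between legs passed for both, at 1.65 (adjusted p = 0.0139) and 1.30 (adjusted p = 0.0128). Slc38a3, a glutamine transporter, was among the 10 largest higher differences at 1.23 ± 0.24 (adjusted p = 0.00863, and 0.0520 without A/J array 3).

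Of 26 atrophy and autophagy genes 4 were higher (15.4%, against 2.64% of all genes) and 0 lower, with a median of 0.03 (-0.12 with median centring). Fbxo40, a muscle ubiquitin ligase that targets the insulin receptor substrate IRS1, read 9.42, 9.18 and 8.97 in A/J and 9.94, 10.11 and 10.01 in A/J-MyD88, higher by 0.83 ± 0.16 (adjusted p = 0.00803), with no overlap. Dimmer probes of Fbxo40 gave 0.08 and 0.23. Atg9a, a membrane protein of autophagosome formation, differed by 0.75 ± 0.15 (adjusted p = 0.0109, and 0.0505 without A/J array 3), while a dimmer probe gave -0.12. Ulk1, the kinase that starts autophagy, differed by 0.82 ± 0.20 (adjusted p = 0.0295), lost without any A/J ssRNA array or A/J-MyD88 arrays 2 or 3 (0.0617 to 0.112). Fbxo21, another ubiquitin ligase subunit, differed by 0.52 ± 0.12 (adjusted p = 0.0268), lost without any 1 of the 6 ssRNA arrays (0.0503 to 0.120). The count of 4 was 2 without A/J array 2 or A/J-MyD88 arrays 2 or 3, and 1 without A/J array 3 or with median centring. Chrne, the epsilon subunit of the acetylcholine receptor of adult neuromuscular junctions, read 5.58, 6.51 and 6.19 in A/J and 7.24, 7.36 and 7.19 in A/J-MyD88, higher by 1.17 ± 0.20 (adjusted p = 0.00454), and differed by -0.29 in the saline legs (adjusted p = 0.523). Mylk2, a kinase of the regulatory myosin light chain, was the 1 called gene of 19 fast fibre genes, at 0.44 ± 0.11 (adjusted p = 0.0303), lost without A/J arrays 1 or 3 or any A/J-MyD88 ssRNA array (0.0539 to 0.113). None of 16 fibre identity genes was called; Acta1, skeletal alpha-actin, differed by 0.36 (adjusted p = 0.108) and Sgca, alpha-sarcoglycan, by 0.39 (adjusted p = 0.203). Of 13 circadian clock genes Dbp, a clock output factor, was the 1 called, at 0.69 ± 0.18 (adjusted p = 0.0363), lost without any A/J ssRNA array or A/J-MyD88 arrays 1 or 2 (0.0818 to 0.119), and it was 0.72 in the saline legs (adjusted p = 0.0269, lost without any of 4 saline arrays, 0.0546 to 0.138).

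Membrane repair, the process that dysferlin serves, gave 4 lower genes and 1 higher gene of 25 (20% called, against 5.66% of all genes), with a median of -0.05. S100a10, the partner of annexin A2, differed by -1.12 ± 0.25 (adjusted p = 0.0188), lost without A/J arrays 2 or 3 or A/J-MyD88 array 2 (0.0556 to 0.0929). Anxa1, annexin A1, differed by -0.90 ± 0.25 (adjusted p = 0.0460), and its partner S100a11 by -0.76 ± 0.22 (adjusted p = 0.0490); each call was lost without any 1 of the 12 arrays (0.0524 to 0.189 and 0.0549 to 0.172). Cav1, caveolin 1, differed by -0.47 ± 0.13 (adjusted p = 0.0399), lost without any of 10 arrays (0.0520 to 0.159). Smpd1, acid sphingomyelinase, differed by 0.56 ± 0.14 (adjusted p = 0.0345), lost without A/J arrays 1 or 3 or any A/J-MyD88 ssRNA array (0.0700 to 0.165). Dimmer probes of Smpd1 gave -0.02 and 0.42. Macrophages also express S100a10, S100a11 and Anxa1, and the macrophage list was lower on the same arrays. Whether it bears on these differences was not tested. The count of 5 was 0 without A/J array 3 or A/J-MyD88 array 2, 1 without A/J arrays 1 or 2 or A/J-MyD88 arrays 1 or 3, and 2 or 3 without any 1 saline array.

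Lists of other cell types held few called genes. Of 25 endothelial markers 2 were lower and 1 higher (12% called), with a median of 0.10 (-0.04 with median centring). Of 24 fibroblast markers 2 were lower (8.33% called), with a median of -0.16. Of all genes 5.66% were called. Ly6c1, an antigen of endothelial cells and monocytes, read 10.23, 9.31 and 9.43 in A/J and 8.65, 8.92 and 8.40 in A/J-MyD88, a difference of -0.998 ± 0.20 (adjusted p = 0.0104, and 0.0506 without A/J-MyD88 array 3). S100a4, a calcium-binding protein of fibroblasts and macrophages, differed by -0.99 ± 0.20 (adjusted p = 0.0111, and 0.0659 and 0.0647 without A/J array 3 and A/J-MyD88 array 2). Scara5, a scavenger receptor of fibroblasts, differed by -0.63 ± 0.18 (adjusted p = 0.0488), lost without any of 10 arrays (0.0538 to 0.210). Tgfbi, a matrix protein induced by TGF-beta, differed by -0.69 ± 0.19 (adjusted p = 0.0467), lost without any of 10 arrays (0.0510 to 0.179), and was higher by 1.01 in the saline legs (adjusted p = 0.00548). Egfl7, a secreted endothelial protein, differed by 0.87 ± 0.22 (adjusted p = 0.0346), lost without any A/J ssRNA array or A/J-MyD88 arrays 1 or 2 (0.0515 to 0.130). Dimmer probes of Egfl7 gave 0.65 and -0.04. Emb, embigin, was among the 10 largest lower differences at -2.01 ± 0.57 (adjusted p = 0.0490), but its A/J-MyD88 arrays read 6.77, 4.25 and 5.82 against 7.43, 7.55 and 7.90, and the call was lost without any of 9 arrays (0.0549 to 0.208). None of the tested adipocyte, smooth muscle and pericyte, Schwann cell, erythroid, skin, or immediate early and heat shock genes was called by limma, with list medians of -0.01 to 0.24. The largest differences in them were -0.99 for Scd1 and -0.81 for Adipoq of adipocytes (adjusted p = 0.173 and 0.473), -0.60 for Rgs5 and 0.54 for Abcc9 of pericytes and smooth muscle (0.448 and 0.0867), 0.47 for Sox10 and -0.46 for Pmp22 of Schwann cells (0.0945 and 0.279), 0.41 for Tspan33 and 0.30 for Bpgm of erythroid cells (0.155 and 0.121), 0.14 for Trp63 and 0.11 for Krt15 of skin (0.848 and 0.780), and -1.03 for Hsp90aa1 and 0.65 for Egr1 of the immediate early and heat shock genes (0.101 and 0.685). Of B and plasma cell markers the largest were 0.33 for Fcer2a and -0.26 for Cd79b (adjusted p = 0.106 and 0.166), the latter detected on 0 of 3 A/J-MyD88 ssRNA arrays. Abcc9 alone of these had a difference between legs that passed, at 0.95 (adjusted p = 0.0262).

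A cluster of differences lay on chromosome 9, which carries Myd88, and many of these were alike in both legs. Of 640 tested genes on this chromosome 60 were called (9.38%), the highest share of any chromosome, against 5.66% overall. Of the 25 genes called in the same direction in ssRNA and saline legs, 17 were on chromosome 9 (68%), which holds 5.70% of the tested genes. Of the 40 tested genes next to Myd88 on one side, 11 were called (27.5%), and the next stretches of 40 on that side held 6, 8 and 5. On the other side, where the chromosome ends after 43 tested genes, 7 of the nearest 40 were called (17.5%). What part the Myd88 allele and the chromosome around it have in these differences was not tested.

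Lrrc2, a leucine-rich repeat protein of muscle and heart, 30 tested genes from Myd88, read 4.24, 4.24 and 4.30 on the A/J arrays and 8.63, 8.31 and 8.56 on the A/J-MyD88 arrays. It was detected on 0 of 3 and 3 of 3 arrays and was at least 16.6-fold higher, with a measured difference of 4.24 ± 0.13 (adjusted p = 5.73e-12). In the saline legs the difference was 4.35 (adjusted p = 3.86e-12), and the difference between legs was -0.11 (adjusted p = 0.795). Myl3, the ventricular and slow-fibre myosin light chain, 34 genes away, read 6.90, 6.66 and 7.43 in A/J and 9.25, 10.18 and 9.99 in A/J-MyD88, higher by 2.81 ± 0.28 (adjusted p = 5.04e-05). It was higher by 1.50 in the saline legs (adjusted p = 0.00519). Myl3 was the only called gene of 17 slow fibre genes, whose median was 0.27.

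Wdr82, a subunit of histone methyltransferase complexes, 121 genes away, read 4.36, 4.47 and 4.32 in A/J and 5.99, 6.10 and 5.92 in A/J-MyD88, higher by 1.62 ± 0.10 (adjusted p = 8.84e-08). Its saline difference was 1.57 (adjusted p = 2.22e-07), while a second probe gave -0.16 in the ssRNA legs, and the first gave -0.62 (adjusted p = 0.789) without background correction. Csrnp1, a nuclear protein 7 genes from Myd88 on the other side, read 4.60, 4.57 and 4.70 in A/J and 6.06, 5.94 and 6.01 in A/J-MyD88, higher by 1.38 ± 0.15 (adjusted p = 7.04e-05) and by 1.58 in the saline legs (adjusted p = 3.73e-05). Parp3, an ADP-ribosyltransferase of DNA repair, was higher by 1.22 ± 0.19 (adjusted p = 0.00227) and by 1.34 in the saline legs (adjusted p = 0.00105). The phosphatase gene Dusp7 was higher by 1.23 ± 0.22 (adjusted p = 0.00603), and by 0.92 in the saline legs (adjusted p = 0.0235, lost without any A/J saline array or A/J-MyD88 saline arrays 1 or 2, 0.0620 to 0.112).

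Next to Myd88 on either side, Oxsr1, a stress-response kinase, and Acaa1a, a peroxisomal thiolase, were higher by 0.99 ± 0.16 (adjusted p = 0.00252) and 0.87 ± 0.12 (adjusted p = 7.69e-04). In the saline legs they were higher by 0.65 (adjusted p = 0.0235) and 0.56 (adjusted p = 0.0115), and these calls were lost without any of 5 and of 3 saline arrays (0.0568 to 0.146 and 0.0549 to 0.0625). A second probe of Oxsr1 gave -0.02 in the ssRNA legs. Stt3b, a subunit of the oligosaccharyltransferase that adds N-glycans, read 10.77, 10.81 and 10.66 in A/J and 9.84, 9.81 and 9.98 in A/J-MyD88, lower, with a difference of -0.87 ± 0.12 (adjusted p = 7.54e-04) and -0.88 in the saline legs (adjusted p = 6.90e-04). Its second probe gave -0.23.

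Azi2, an adaptor of the kinase TBK1, 7 genes from Myd88, and Cmtm8, a membrane protein 13 genes away, differed in the same direction in both legs. Azi2 differed by -0.51 ± 0.13 in the ssRNA legs (adjusted p = 0.0344, lost without any A/J ssRNA array or A/J-MyD88 arrays 1 or 3, 0.0770 to 0.125) and by -1.26 in the saline legs (adjusted p = 7.76e-05). Its dimmer probes gave 0.16, 0.13 and -0.14 in the ssRNA legs. Cmtm8 differed by -0.48 ± 0.12 (adjusted p = 0.0326, lost without any 1 of the 6 ssRNA arrays, 0.0532 to 0.133) and by -0.65 in the saline legs (adjusted p = 0.00472).

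Of the other called genes near Myd88, Tgfbr2 differed in opposite directions in the 2 legs, and the rest were not called in the saline legs. Acvr2b, a receptor for myostatin and activins, next but one to Myd88, read 7.60, 7.85 and 7.92 in A/J and 8.44, 8.67 and 8.36 in A/J-MyD88, higher by 0.70 ± 0.13 (adjusted p = 0.00570, and 0.0552 with median centring). It differed by -0.26 in the saline legs (adjusted p = 0.301), and the difference between legs was 0.96 (adjusted p = 0.00317). Cnot10, a subunit of the CCR4-NOT deadenylase complex, read 6.31, 6.33 and 5.99 in A/J and 6.89, 6.83 and 7.20 in A/J-MyD88, higher by 0.76 ± 0.14 (adjusted p = 0.00754), against 0.01 in the saline legs (adjusted p = 0.992). The beta-catenin gene Ctnnb1 differed by -0.57 ± 0.11 (adjusted p = 0.00863, and 0.0526 without A/J array 3). Glb1, lysosomal beta-galactosidase, differed by -0.85 ± 0.17 (adjusted p = 0.00968, and 0.0505 without A/J array 3), while a dimmer probe gave -0.02. Sec22c, a protein of vesicle transport, differed by 0.70 ± 0.14 (adjusted p = 0.0108, and 0.0647 without A/J-MyD88 array 2). Hhatl, a muscle membrane protein, and Lrrfip2, a leucine-rich repeat interacting protein, differed by 0.65 ± 0.14 (adjusted p = 0.0137) and 0.58 ± 0.12 (adjusted p = 0.0128), both lost without A/J array 3 or A/J-MyD88 arrays 2 or 3 (0.0521 to 0.0771 and 0.0538 to 0.0774). Tgfbr2, the type II receptor for TGF-beta, differed by -0.55 ± 0.15 in the ssRNA legs (adjusted p = 0.0436, lost without any of 7 arrays, 0.0530 to 0.182) and was higher by 0.83 in the saline legs (adjusted p = 0.00386).

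**Figure D4:**
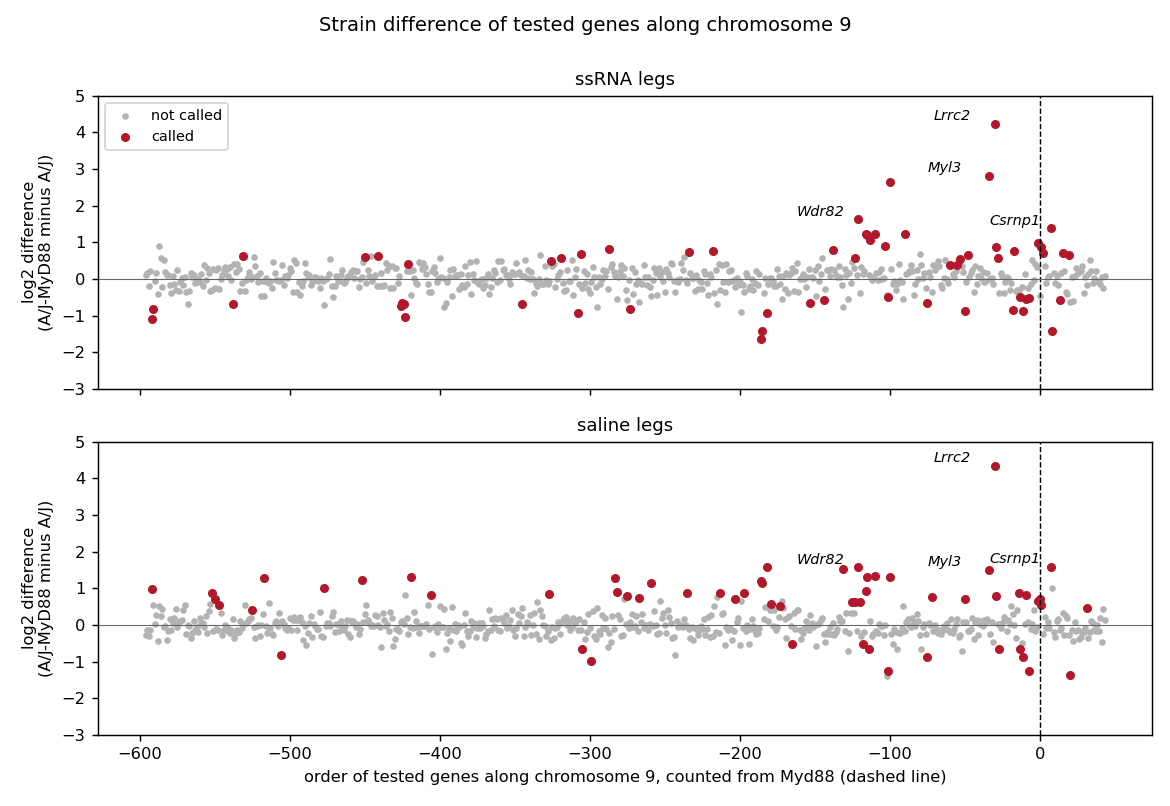
The log2 difference between A/J-MyD88 and A/J is plotted for 640 tested genes in their order along chromosome 9, counted from Myd88 (dashed line), for the ssRNA legs above and the saline legs below; red points were called. Lrrc2 stands at 4.24 and 4.35, and in the ssRNA legs 11 and 7 of the nearest 40 genes on the 2 sides of Myd88 were called, beside 8 of the 40 that lie 81 to 120 genes away on the longer side.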

How the data were processed

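Biotinylated cRNA of total RNA, extracted with Trizol per the labels' protocols, was hybridised to Illumina bead arrays. The deposited intensity values are raw probe intensities exported by the authors from GenomeStudio, per the submitters' processing notes, with a detection p-value deposited beside each intensity. A second deposited table of intensity values, normalized by the authors within each strain, served only as an alternative for the difference between legs. In R 4.3.3 with limma 3.58.1, neqc corrected background from the detection p-values, added an offset of 16 and quantile-normalized log2 intensities. Of 45281 deposited probes, 20825 were kept for being detected (p under 0.05) on 3 or more arrays. Of all probes 34885 had 1 gene symbol, 18 several and 10378 none. The last 2 kinds were left out, and the brightest probe stood for each of 11233 genes. Of 76 further probes of the described genes, 61 had the sign of the brightest probe in the ssRNA legs, and not all of them are given above.

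A mean per group was fitted to 17 arrays of 6 groups (lmFit, eBayes, 11 residual and 5.01 prior degrees of freedom). The array A/JOlaHsd ssRNA 2 was left out: its mean raw signal was -0.33 and 3.71% of its probes were detected. Two-sided p-values were adjusted over all genes (Benjamini-Hochberg), and genes under 0.05 were called. Where a gene was detected on no array of its lower group, the fold is at least the ratio to the lowest detected signal of each array. On simulated data 89 of 100 genes changed 2-fold and 100 of 100 changed 4-fold were called in the main comparison, with 11 false calls. Described genes were, by rule, Dysf and Myd88, the 10 largest called differences each way without overlap, the 5 largest each way between legs, up to 4 called members of each list (the 2 largest where none was called), and called genes among the 40 on each side of Myd88. Members and lists were chosen with earlier results of these data known. Array numbers did not pair the ssRNA groups (correlations of deviations 0.19, -0.05 and -0.23). Between saline and ssRNA legs of A/J mice, arrays of the same number correlated at 0.40, 0.44 and 0.14, and number 3 matched number 1 best. For A/J-MyD88 mice the values were 0.47, 0.17 and 0.17, each number matching itself best. The 2 saline groups, which are of different strains, also correlated by number (0.17 to 0.26), so these values do not settle whether the numbers pair legs. Promoters came from RefSeq tables of GRCm38.p6, as did gene order. The authors' build is not given in the sources used here.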

Additional observations from a re-analysis of the deposited data

Results flagged for a closer look

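The strain difference between A/J-MyD88 and A/J was not the same in ssRNA and saline legs for 1144 genes, by a direct test of the difference between the legs over 3 arrays a group. Of the genes described above, 70 were among them, and the log2 value in parentheses is the difference in ssRNA legs minus that in saline legs. It was below 0 for the macrophage genes Ms4a6d (-3.79), Lyz2 (-3.74), Ctss (-3.37), Fcgr4 (-3.17) and Adgre1 (-3.05), for Plac8 (-3.15), Cx3cr1 (-2.43), C1qc (-2.63), C1qa (-1.91) and Cfb (-1.94), and for the class I and class II genes Psmb8 (-2.17), H2-K1 (-2.09), H2-T23 (-1.84), H2-Q8 (-1.60), H2-Ab1 (-2.12), Cd74 (-2.01) and H2-Eb1 (-1.83). Chemokines and receptors of the innate response below 0 were Ccl8 (-4.03), Ccl5 (-2.19), Ccl7 (-2.17), Ccl4 (-1.74), Tlr7 (-2.20), Tlr2 (-1.99), Tlr4 (-1.03), Cd14 (-1.83) and Fpr2 (-2.08), beside Casp1 (-2.08), Casp4 (-1.36), Csf3r (-1.43), S100a8 (-1.40), Il18r1 (-1.20) and Il16 (-1.16). Fpr2 and Il18r1 were tested only because the A/J ssRNA arrays detected them. Those arrays enter this difference too, so the calls of these genes support nothing further here. The interferon-induced genes Ifi27l2a (-3.64) and Trim30a (-1.47) and the NK and T cell genes Klrd1 (-2.15), Nkg7 (-1.37) and Cd3e (-0.70) were also below 0, as were Tnc (-2.91), Prc1 (-2.74), H2ac12 (-3.65), Tgfbi (-1.71), Scara5 (-0.88) and S100a4 (-1.60) of matrix, division and fibroblasts. Of the membrane repair list and the genes near Myd88, S100a11 (-1.96), S100a10 (-1.40), Anxa1 (-1.18), Tgfbr2 (-1.38), Glb1 (-1.16) and Myd88 (-1.17) were below 0.

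Values above 0 were found for the fuel and transport genes Slc16a3 (1.65), Pdk2 (1.60), Fitm1 (1.48), Decr1 (1.42), Crat (1.34), Pygm (1.30), Uqcrc1 (0.83) and Dlst (0.57), for the autophagy and ubiquitin ligase genes Atg9a (1.28), Fbxo40 (1.09) and Ulk1 (1.03), and for Chrne (1.47), Slc38a3 (1.40), Abcc9 (0.95) and Mylk2 (0.64). Above 0 on chromosome 9 were also Myl3 (1.31), Acvr2b (0.96), Hhatl (0.92), Cnot10 (0.76), Azi2 (0.76) and Lrrfip2 (0.57). With 1 array left out in turn, 16 of the 70 lost this call at least once: Cd3e, Anxa1, Lrrfip2, Ulk1, Myl3, H2-Q8, Dlst, Scara5, Pdk2, Cnot10, Abcc9, Trim30a, S100a10, Fitm1, Il16 and Azi2.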

How the results depend on the processing

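Of the 88 described genes called in the ssRNA legs, 76 stayed called with median centring, 32 without background correction, 66 with no filter on dim probes, 71 with the probe of largest variance per gene, 86 and 85 when 12 arrays or the 6 ssRNA arrays alone were fitted, and 87 with a trended, robust prior. With the array that held no muscle signal, 18 arrays in all, 11 stayed called. Of 636 genes called, the same settings gave 1247 with median centring (89 higher, 1158 lower), 166 without background correction, 18 with 18 arrays, 1690 with 12 arrays and 1259 with 6. In the saline legs, with 604, they gave 972 with median centring (857 higher, 115 lower), 15 with 18 arrays and 1292 with 12. For the difference between legs, with 1144, they gave 1764 (83 higher, 1681 lower), 25 and 2174, and the authors' values gave 1809. Leaving out 1 array gave 187 to 680, 179 to 597 and 599 to 1222. Wdr82 changed sign without background correction (-0.62, adjusted p = 0.789), and Dlst with the probe of largest variance (-0.0156, adjusted p = 0.984). The causes were not tested.

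With the array number as a replicate block, which the correlations bear out for the saline groups but not for the ssRNA groups, 533, 574 and 1098 genes were called, and 75 of the 88 stayed called. With the legs of a strain paired by number as a block, chosen after seeing the data, the difference between legs called 2725 genes, and each of the 70 described genes called there stayed called. The correlations do not settle whether these numbers pair the legs of an animal.

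With 3 arrays a group and a median standard error of 0.16, small differences escape: 89 of 100 simulated 2-fold changes were called in the ssRNA comparison and 63 of 100 between legs. The simulation assumes equal spread in all groups.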
